A study of Homo sapiens with 6 samples.

Results

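The SLC25 family holds the carriers of the inner mitochondrial membrane, and its members were followed here in MKN-74, an established line of human gastric cancer cells, made to express HOXD9. Members were taken by name: each gene whose symbol is SLC25A followed by a number, which gave 36 of the 12385 genes measured and 107 of the 40304 transcripts. The tested cells carried a lentivirus with HOXD9 (LV-HOXD9, 3 libraries), and the control cells carried the empty lentivirus (LV-Vector, 3 libraries). Both kinds of cells were of the same line and had been kept in puromycin at 10 μg/ml for more than 14 days, and both carry a vector with a Ubi promoter before the insert, a FLAG tag, green fluorescent protein and puromycin resistance. Nothing in the labels says that the 3 libraries of a group came from separate infections or cultures, and the p-values measure the spread between these libraries, which may be technical. HOXD9, a homeobox transcription factor, was at 26.6, 26.4 and 31.3 FPKM (fragments scaled by transcript length and library total) in LV-HOXD9 libraries, against 0, 0.0413 and 0.0309 FPKM in LV-Vector libraries. RNA of the insert and of the endogenous gene cannot be told apart in these values. The comparison asks how the RNA level of each carrier differs between the cells with and without forced HOXD9.

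The inner mitochondrial membrane lets few solutes through by itself, and SLC25 carriers move nucleotides, phosphate, metabolites, amino acids, cofactors and metal ions across it, in most cases by exchanging one solute for another. They are encoded in the nucleus, share a fold built from repeats of the same unit, and are brought in through the TOM complex of the outer membrane, small chaperones between the membranes and the TIM22 complex of the inner membrane. A few relatives sit elsewhere: SLC25A46 is in the outer membrane and acts on the shape of mitochondria, and SLC25A17 is in peroxisomes.

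Some facts of all libraries bear on what follows. The files give FPKM without counts, and neither the depth of a library nor a counting error is known. The epithelial markers EPCAM, CDH1, KRT8, KRT18 and KRT19 were all measured, with sums of 954 to 977 FPKM in LV-HOXD9 libraries and 799 to 907 FPKM in LV-Vector libraries. The keratins carried this difference, with log2 fold changes of 0.14, 0.31 and 0.21 for KRT8, KRT18 and KRT19. The groups of KRT8 overlapped, and its highest value, 269 FPKM, came from LV-Vector replicate 1. EPCAM and CDH1 had log2 fold changes of -0.08 and -0.02. The part of the marker difference in the values of the carriers was not tested. KRT18, at 294, 288 and 307 FPKM in LV-HOXD9 libraries, against 245, 228 and 243 FPKM in LV-Vector libraries, met the criterion of the study (an unadjusted p under 0.05 and over 1.2-fold) as higher and had an adjusted p of 0.0905. Of 5 fibroblast markers 1 was measured (0.924 to 1.05 FPKM in LV-HOXD9 libraries, against 1.00 to 1.22 FPKM in LV-Vector libraries). Of 4 leukocyte markers 1 was measured (1.37 to 1.49 FPKM in LV-HOXD9 libraries, against 1.35 to 2.32 FPKM in LV-Vector libraries). The 3 endothelial markers were looked up and had no value here. The libraries that differed most were LV-HOXD9 replicate 3 and LV-Vector replicate 2 (r = 0.973 across genes on the log2 scale, 0.979 to 0.989 for the other pairs). Across genes, their departures from the mean library went with the GC content of the transcript in opposite senses, with a Spearman rho of 0.66 in LV-HOXD9 replicate 3 and of -0.60 in LV-Vector replicate 2.

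The ADP/ATP translocases led the family by level, and FPKM is per length, so that levels of different genes can be set side by side. SLC25A5 averaged 219 ± 49.8 FPKM in LV-HOXD9 libraries, against 245 ± 9.05 FPKM in LV-Vector libraries (mean ± SD, n = 3 each). SLC25A6 averaged 96.6 ± 4.46 FPKM in LV-HOXD9 libraries, against 93.6 ± 6.53 FPKM in LV-Vector libraries. Next came SLC25A1, the citrate carrier, with a mean of 54.1 FPKM over the 6 libraries, SLC25A3, the phosphate carrier, with 31.1 FPKM, and SLC25A11, the oxoglutarate-malate carrier, with 25.2 FPKM. These 5 genes keep their order in the means of each group. At the low end stood SLC25A45, of unassigned substrate, with 0.683 FPKM, SLC25A42, the coenzyme A carrier, with 1.02 FPKM, and SLC25A26, the S-adenosylmethionine carrier, with 1.07 FPKM. The median level was 6.23 FPKM over the members and 5.44 FPKM over all genes. Each member averaged at least 0.643 FPKM in both groups. The larger of a gene's group means was never under 0.5 FPKM in the gene table, so no member was measured through 1 group alone.

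No carrier passed the test across all genes. Of the 36 members, 0 had an adjusted p under 0.05 from limma, against 25 of all genes (0.202%), of which 18 were lower and 7 higher. That split was 30 lower and 4 higher on a TPM scale, 8 lower and 6 higher after median centring, and 159 lower and 175 higher after trends with GC content and length were removed. The smallest adjusted p of a member was 0.116 and the largest 0.943. At an unadjusted p under 0.05 stood 5 members (13.9%, beside 19% of all genes), of which 2 were lower (5.56%, beside 11.9%) and 3 higher (8.33%, beside 7.12%). An ordinary linear model without moderation also gave 0 members at an adjusted p under 0.05, with a smallest adjusted p of 0.132. The criterion of the study, an unadjusted p under 0.05 together with a difference of over 1.2-fold, picked SLC25A43 as lower (1 member, beside 4.6% of all genes) and SLC25A20 as higher (1 member, beside 1.94% of all genes). SLC25A43 no longer met it with the replicate number as a block, or without both LV-HOXD9 replicate 3 and LV-Vector replicate 2, where 0 members were lower.

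How far the carriers could have differed is shown by their intervals. The 95% interval of the log2 fold change had a median half-width of 0.21 and ranged from 0.12 to 0.40. The scale is log2(FPKM + 1), where the added 1 makes fold changes of low members smaller than they are in FPKM. For 32 of the 36 members the interval lay, on this scale, within a 1.5-fold difference in either direction. SLC25A25, SLC25A36 and SLC25A37 were among the exceptions. In FPKM the lowest ratio of group means, LV-HOXD9 over LV-Vector, was 0.664 (SLC25A36), which is past 1.5-fold. Within 1.2-fold on the same scale lay the intervals of 11 members: SLC25A1, SLC25A3, SLC25A6, SLC25A12, SLC25A13, SLC25A23, SLC25A26, SLC25A32, SLC25A33, SLC25A42 and SLC25A44. The intervals of low members among them, such as SLC25A26 and SLC25A42 at 1.07 and 1.02 FPKM, would be wider in FPKM. All these intervals hold for the fit without removal of trends or other normalization. SLC25A32 had a log2 fold change of 0.02 in that fit. Once the trends with GC content and length were removed, it was 0.17 (SE 0.053). The sizes of difference were close to those of genes at large, since the median absolute log2 fold change was 0.121 over the members and 0.125 over all genes.

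**Figure D1:**
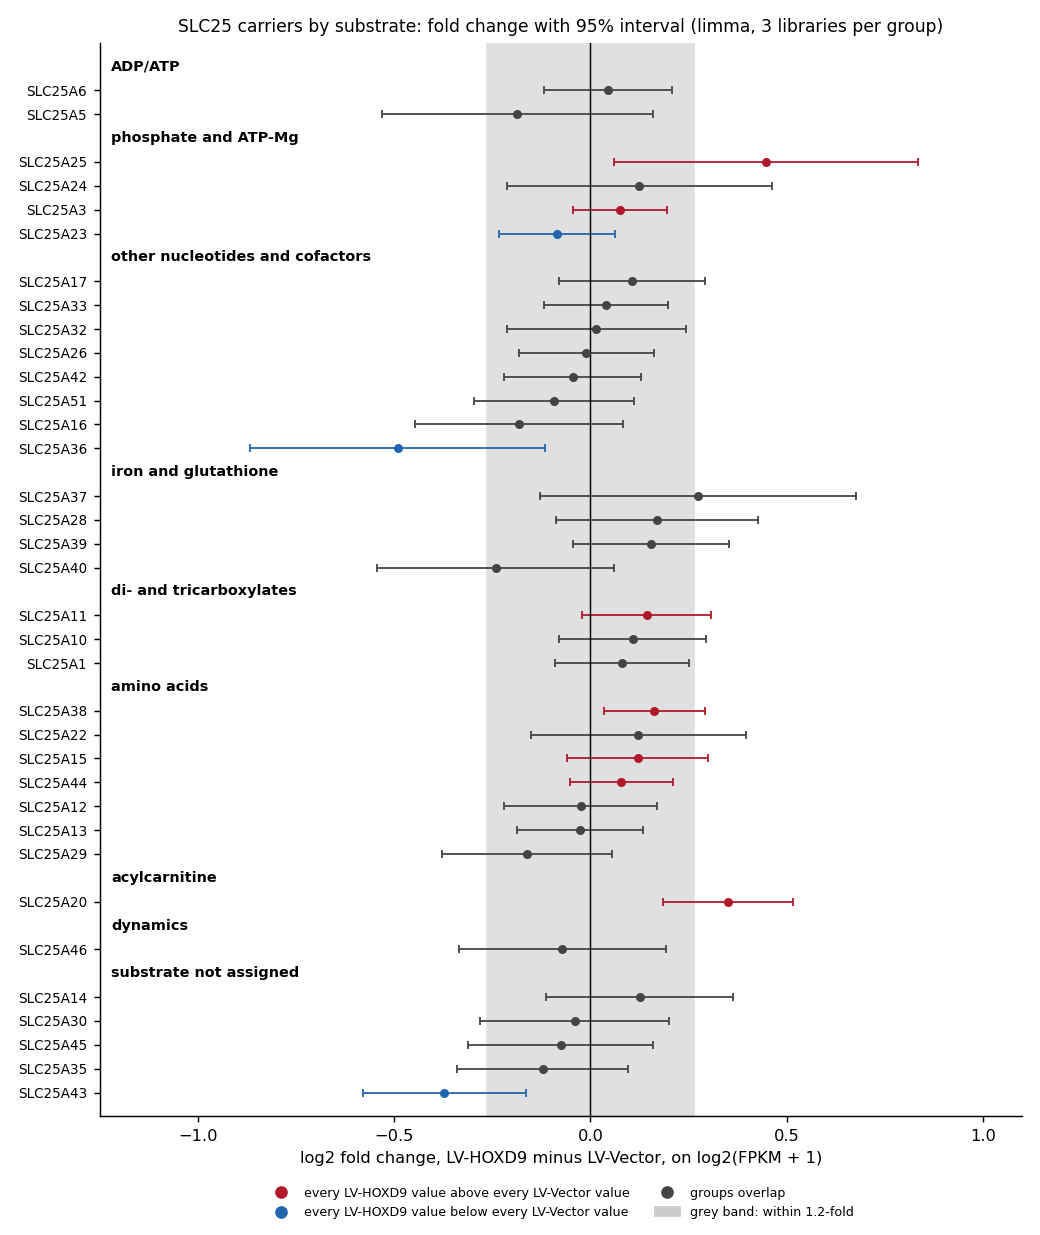
Log2 fold change of 35 SLC25 carriers (x axis, LV-HOXD9 minus LV-Vector on log2(FPKM + 1)) by substrate group, with bars for the 95% interval from limma and colour for members whose 3 LV-HOXD9 values all lie above (red) or below (blue) the 3 LV-Vector values. Points run from -0.49 for SLC25A36 to 0.45 for SLC25A25, and 11 intervals lie inside the grey band of 1.2-fold.

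As a family the carriers stood close to 0, in bulk RNA, where fewer cells of a type and less RNA per cell cannot be told apart. The median log2 fold change was 0.04 over the members and -0.04 over all genes, with 20 members positive and 16 negative. Positive members were 55.6%, beside 40.1% of all genes. On a TPM scale the member median turned to -0.02, with 17 positive and 19 negative, where the median of all genes was -0.11. All 3 LV-HOXD9 values lay below all 3 LV-Vector values for 3 members (8.33%), SLC25A23, SLC25A36 and SLC25A43, beside 17.5% of all genes. They lay above them for 7 members (19.4%), SLC25A3, SLC25A11, SLC25A15, SLC25A20, SLC25A25, SLC25A38 and SLC25A44, beside 10.9% of all genes. Together these were 10 of 36 members (27.8%), against 28.4% of all genes. The count above was 4 on a TPM scale and 11 after the trends with GC content and length were removed. With a library left out, which makes separation of the groups easier to meet, the count below was 6 without LV-HOXD9 replicate 1 and 5 without either LV-HOXD9 replicate 3 or LV-Vector replicate 1, and the count above was 13 without LV-Vector replicate 1. The criterion of the study picked 2 members as lower without LV-HOXD9 replicate 1 or LV-Vector replicate 1, and 2 as higher without LV-Vector replicate 1. Shares of all genes under these alternative settings were not counted, so these counts cannot be read as particular to the carriers.

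SLC25A20 had the smallest p of the family. It is the carnitine-acylcarnitine carrier, which brings long-chain fatty acids, as acylcarnitines, into the matrix for oxidation, and its gene lies at chr3:48894364-48936426 on the minus strand (GRCh37). It was at 10.7, 10.2 and 9.89 FPKM in LV-HOXD9 libraries, against 8.38, 7.44 and 7.65 FPKM in LV-Vector libraries. Each LV-HOXD9 value exceeded each LV-Vector value. The log2 fold change was 0.35 (SE 0.070, 95% interval 0.19 to 0.52), with an adjusted p of 0.116 from limma. Across the 15 alternative fits its log2 fold change stayed between 0.32 and 0.42. It passed the test in 1 of them, the removal of trends with GC content and length, with a log2 fold change of 0.34 (adjusted p = 0.0428), in a fit that called 2.77% of all genes.

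SLC25A43 had the next smallest p. Its substrate is not assigned here, and its gene at chrX:118533023-118588441 (GRCh37, plus strand) ends 13921 bases before that of SLC25A5 at chrX:118602363-118605282 on the same strand. It was at 1.99, 2.15 and 2.30 FPKM in LV-HOXD9 libraries, against 3.34, 3.18 and 2.72 FPKM in LV-Vector libraries, so that each LV-HOXD9 value was lower than each LV-Vector value. The log2 fold change was -0.37 (SE 0.088, 95% interval -0.58 to -0.16, adjusted p = 0.148). It was negative in each of the 15 alternative fits, from -0.53 to -0.28. A second gene, AC004000.1, overlaps SLC25A43 on the same strand, and reads that both could claim cannot be told apart in these values. The neighbour SLC25A5 did not stand apart in the same way, since its groups overlapped.

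The ADP/ATP translocases bring ATP out of the matrix in exchange for ADP. SLC25A5, translocase 2, was at 276, 195 and 185 FPKM in LV-HOXD9 libraries, against 247, 235 and 253 FPKM in LV-Vector libraries. The LV-HOXD9 replicate 1 value was the highest of the 6, and the other LV-HOXD9 values were the lowest, so the groups overlapped through 1 library. The log2 fold change was -0.19 (SE 0.145, adjusted p = 0.491), and the interval from -0.53 to 0.16 covers a difference in either direction. It was -0.36 (adjusted p = 0.215) without LV-HOXD9 replicate 1 and -0.08 (adjusted p = 0.815) without LV-HOXD9 replicate 3. SLC25A6, translocase 3, was at 93.0, 95.2 and 102 FPKM in LV-HOXD9 libraries, against 99.0, 86.4 and 95.5 FPKM in LV-Vector libraries. Its log2 fold change of 0.05 had an interval of -0.12 to 0.21. SLC25A5 was the most abundant of the 36 members, and reads of SLC25A5 and SLC25A6 can be shared with paralogs, pseudogenes and, for SLC25A6, the copy on the Y chromosome, depending on how they were counted. SLC25A4, translocase 1, had no value here.

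**Figure D2:**
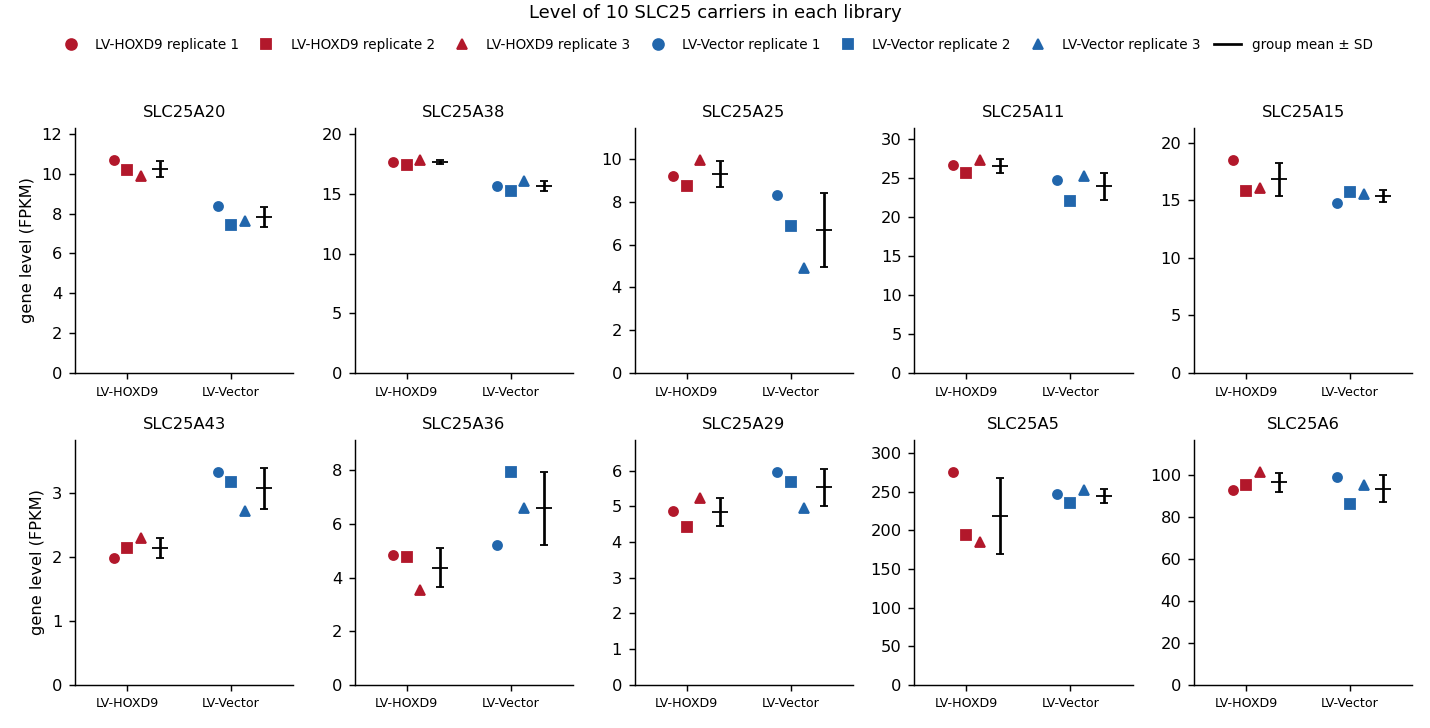
Level of 10 SLC25 carriers (y axis, FPKM, from 0) in each of the 3 LV-HOXD9 libraries (red, left) and 3 LV-Vector libraries (blue, right), with the group mean and SD in black. SLC25A20, SLC25A38, SLC25A25, SLC25A11 and SLC25A15 have each LV-HOXD9 point above each LV-Vector point, SLC25A43 and SLC25A36 have each below, and SLC25A29, SLC25A5 and SLC25A6 overlap.

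Phosphate for ATP synthesis enters through SLC25A3. Its levels were tight, at 32.6, 32.02 and 31.02 FPKM in LV-HOXD9 libraries and 29.9, 30.3 and 30.5 FPKM in LV-Vector libraries, a log2 fold change of 0.07 (95% interval -0.05 to 0.19, adjusted p = 0.433). The groups did not overlap, yet the interval keeps the difference under 1.2-fold. The calcium-regulated ATP-Mg/phosphate carriers, which set the adenine nucleotide content of the matrix, gave 3 different pictures. SLC25A25 was at 9.23, 8.75 and 9.96 FPKM in LV-HOXD9 libraries, against 8.33, 6.85 and 4.88 FPKM in LV-Vector libraries. Its log2 fold change of 0.45 was the largest positive one of the family (SE 0.163, 95% interval 0.06 to 0.83, adjusted p = 0.225), and most of the spread came from the LV-Vector libraries. Without LV-Vector replicate 3, the lowest, it was 0.27, under the 0.34 of SLC25A20 in that fit. SLC25A24 was at 12.9, 8.31 and 9.96 FPKM in LV-HOXD9 libraries, against 8.997, 9.83 and 9.12 FPKM in LV-Vector libraries, with LV-HOXD9 replicates 1 and 2 as the extremes (log2 fold change 0.12, and -0.03 without LV-HOXD9 replicate 1). SLC25A23 was at 10.5, 9.65 and 10.5 FPKM in LV-HOXD9 libraries, below 10.8, 11.03 and 10.98 FPKM in LV-Vector libraries, a log2 fold change of -0.09 with an interval of -0.23 to 0.06. SLC25A25 and SLC25A23 overlap NAIF1 and CRB3 on the opposite strand, as SLC25A11, SLC25A12, SLC25A22, SLC25A26, SLC25A32, SLC25A35 and SLC25A40 also overlap genes there, and whether reads were counted by strand is not stated. SLC25A36 and SLC25A37 overlap AC108727.1 and FP15737 on the same strand, and shared reads cannot be told apart in their values.

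Carriers of other nucleotides and cofactors were the largest group, with 9 members, 4 of positive and 5 of negative log2 fold change. SLC25A36 and SLC25A33 both carry pyrimidine nucleotides, and they gave different values. SLC25A36 was at 4.85, 4.75 and 3.52 FPKM in LV-HOXD9 libraries, against 5.23, 7.94 and 6.58 FPKM in LV-Vector libraries. The groups did not overlap, and the lowest and the highest value came from LV-HOXD9 replicate 3 and LV-Vector replicate 2, the libraries that stand apart in their trend with GC content. Its log2 fold change of -0.49 was the most negative of the family (SE 0.159, 95% interval -0.87 to -0.11, adjusted p = 0.204), and became -0.29 with an adjusted p of 0.0991 once the trends with GC content and length were removed. SLC25A33 was at 4.72 to 5.08 FPKM in LV-HOXD9 libraries and 4.61 to 4.93 FPKM in LV-Vector libraries, with a log2 fold change of 0.04.

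Of the remaining cofactor carriers, SLC25A16, linked to coenzyme A supply, was at 1.35, 1.00 and 0.960 FPKM in LV-HOXD9 libraries, against 1.18, 1.67 and 1.32 FPKM in LV-Vector libraries (log2 fold change -0.18, adjusted p = 0.391). The groups overlapped through LV-HOXD9 replicate 1. A further 5 lay within 0.11 of 0 on the log2 scale: SLC25A17, a cofactor carrier of peroxisomes, with 0.11, SLC25A32, for folate and FAD, with 0.02, SLC25A26 with -0.01, SLC25A42 with -0.05 and SLC25A51, the NAD+ carrier, with -0.09.

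Iron for heme and iron-sulfur clusters enters through the mitoferrins, and glutathione through SLC25A39 and SLC25A40. The mitoferrin SLC25A37 was at 2.86, 3.37 and 5.19 FPKM in LV-HOXD9 libraries, against 2.95, 2.74 and 2.99 FPKM in LV-Vector libraries, so that its log2 fold change of 0.27 (95% interval -0.13 to 0.68) came mostly from LV-HOXD9 replicate 3. Without that library it was 0.08. The mitoferrin SLC25A28 had 10.9 to 11.9 FPKM in LV-HOXD9 libraries and 8.34 to 11.3 FPKM in LV-Vector libraries, a log2 fold change of 0.17 with overlapping groups. SLC25A39 was at 22.8, 23.5 and 26.7 FPKM in LV-HOXD9 libraries, against 23.6, 20.6 and 21.1 FPKM in LV-Vector libraries (log2 fold change 0.15, adjusted p = 0.342). SLC25A40 was at 2.29, 2.58 and 1.82 FPKM in LV-HOXD9 libraries, against 2.31, 3.21 and 2.93 FPKM in LV-Vector libraries (log2 fold change -0.24, adjusted p = 0.330). These paralogs thus had log2 fold changes of opposite sign, with overlapping groups in each. They also lie near opposite ends in GC content, 61.5% for SLC25A39 and 34.2%, the lowest of the family, for SLC25A40, and with the trends removed the values were 0.08 and -0.05.

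The 3 carriers of di- and tricarboxylates link the citric acid cycle to the cytosol. SLC25A1, which exports citrate for fatty acid and sterol synthesis, was at 53.4, 54.0 and 59.5 FPKM in LV-HOXD9 libraries, against 56.2, 49.2 and 52.4 FPKM in LV-Vector libraries, a log2 fold change of 0.08 (95% interval -0.09 to 0.25). SLC25A11, part of the malate-aspartate shuttle, was at 26.6, 25.6 and 27.3 FPKM in LV-HOXD9 libraries, above 24.7, 21.95 and 25.2 FPKM in LV-Vector libraries (log2 fold change 0.14, SE 0.069, adjusted p = 0.305). The groups of SLC25A11 did not overlap, though by a small margin. SLC25A10, the dicarboxylate carrier, had 21.7 to 24.6 FPKM in LV-HOXD9 libraries and 19.3 to 22.1 FPKM in LV-Vector libraries, a log2 fold change of 0.11 with overlapping groups. The median of the group was 0.11, and became -0.01 without both LV-HOXD9 replicate 3 and LV-Vector replicate 2.

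Of the 7 amino acid carriers, 3 had groups that did not overlap, each with the LV-HOXD9 values above (beside 10.9% of all genes). SLC25A38, which carries glycine for heme synthesis, had the fourth smallest p of the family, at 17.6, 17.5 and 17.8 FPKM in LV-HOXD9 libraries, against 15.7, 15.2 and 16.1 FPKM in LV-Vector libraries. The difference was small against a smaller spread, with a log2 fold change of 0.16 (SE 0.054, 95% interval 0.03 to 0.29, adjusted p = 0.208). SLC25A15, the ornithine carrier of the urea cycle, was at 18.5, 15.8 and 16.1 FPKM in LV-HOXD9 libraries, against 14.7, 15.7 and 15.6 FPKM in LV-Vector libraries, with LV-HOXD9 replicate 1 apart from the rest (log2 fold change 0.12, and 0.05 without that library). SLC25A44, for branched-chain amino acids, was at 11.7, 11.8 and 11.6 FPKM in LV-HOXD9 libraries, just above 10.9 to 11.3 FPKM in LV-Vector libraries (log2 fold change 0.08). SLC25A29, for basic amino acids, was at 4.88, 4.42 and 5.22 FPKM in LV-HOXD9 libraries, against 5.97, 5.69 and 4.96 FPKM in LV-Vector libraries (log2 fold change -0.16, adjusted p = 0.357). The groups of SLC25A29 overlapped. The aspartate-glutamate carriers of the malate-aspartate shuttle, SLC25A12 and SLC25A13, had log2 fold changes of -0.03 each, and SLC25A13, at 18.5 to 20.5 FPKM in LV-HOXD9 libraries and 19.5 to 21.3 FPKM in LV-Vector libraries, was the more abundant. SLC25A22, a glutamate carrier, had a log2 fold change of 0.12 with an interval of -0.15 to 0.39.

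The remaining members were low. SLC25A46, which acts on mitochondrial shape, was at 2.70 to 3.44 FPKM in LV-HOXD9 libraries and 2.91 to 3.84 FPKM in LV-Vector libraries (log2 fold change -0.07). Besides SLC25A43, the members of unassigned substrate were SLC25A14 with a log2 fold change of 0.12, SLC25A30 with -0.04, SLC25A35 with -0.12 and SLC25A45 with -0.08. Their intervals all included 0. Transcripts of SLC25A21 and SLC25A53, which have no value in the gene table, averaged 0.542 and 1.26 FPKM in LV-HOXD9 libraries, against 0.540 and 1.81 FPKM in LV-Vector libraries. SLC25A53-201 had no overlap between groups, with an adjusted p of 0.688.

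Levels were also summed over the family and over each substrate group. The 36 members summed to 661 ± 48.6 FPKM in LV-HOXD9 libraries, against 665 ± 17.7 FPKM in LV-Vector libraries (mean ± SD, n = 3 each), which was 0.236% to 0.278% of the summed FPKM of all genes in LV-HOXD9 libraries and 0.261% to 0.270% in LV-Vector libraries. SLC25A5 set most of the spread, and without it the sums were 442 ± 10.6 FPKM in LV-HOXD9 libraries, against 419.7 ± 10.99 FPKM in LV-Vector libraries. The ADP/ATP translocases took 51.5%, 46.2% and 44.9% of the members' sum in LV-HOXD9 libraries, against 49.9% to 51.9% in LV-Vector libraries. The amino acid carriers summed to 80.3 ± 1.39 FPKM in LV-HOXD9 libraries and 76.8 ± 0.524 FPKM in LV-Vector libraries, and the phosphate and ATP-Mg carriers to 61.8 ± 3.29 FPKM in LV-HOXD9 libraries, against 57.1 ± 1.47 FPKM in LV-Vector libraries. In both of these groups, in SLC25A20 and in the sum without SLC25A5, each LV-HOXD9 value lay above each LV-Vector value. The summed FPKM of all genes also tended higher, at 256588 to 270501 in LV-HOXD9 libraries and 242093 to 257015 in LV-Vector libraries. Whether these sums stay apart as shares of that total was not tested, so the separation cannot be read as particular to the carriers. Members of unassigned substrate summed to 7.46 ± 0.426 FPKM in LV-HOXD9 libraries, against 8.55 ± 0.614 FPKM in LV-Vector libraries. The median log2 fold change was positive in 5 of the 9 groups, led by acylcarnitine (0.35, SLC25A20 alone) and iron and glutathione (0.16, with 0.08 without LV-HOXD9 replicate 3, 0.10 without LV-Vector replicate 3 and 0.05 without both libraries that stand apart), and negative in the ADP/ATP, other nucleotide and cofactor, dynamics and unassigned groups (-0.07, -0.01, -0.07 and -0.08), and after quantile normalization it was positive in 8 groups.

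**Figure D3:**
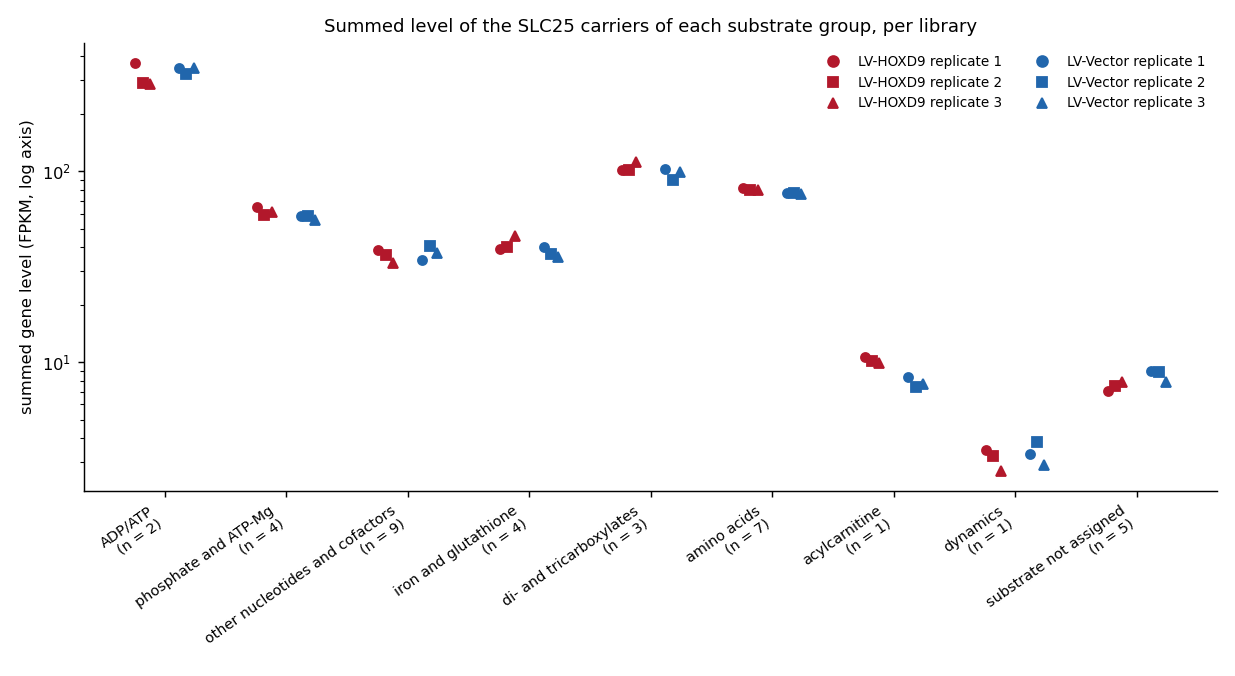
Summed level of the SLC25 carriers of each substrate group (y axis, FPKM, log axis) in each LV-HOXD9 library (red) and LV-Vector library (blue). The ADP/ATP sums run from 287 to 369 FPKM in LV-HOXD9 libraries and from 322 to 348 FPKM in LV-Vector libraries, and the acylcarnitine group is SLC25A20 alone.

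The members' fold changes went with GC content in the same sense as those of all genes. Across the 36 members, which share the same 6 libraries, the Spearman rho between log2 fold change and GC content of the leading transcript was 0.31, and over the 12069 genes with a value it was 0.43. The 18 members of lower GC content (34.2% to 50.8%) had a median log2 fold change of -0.03, with 7 positive and 11 negative, and the 18 of higher GC content (51.1% to 65.6%) had a median of 0.11, with 13 positive and 5 negative. LV-HOXD9 replicate 3 gave the highest value of the 6 libraries for 12 members and the lowest for 8, and LV-Vector replicate 2 gave the highest for 10 and the lowest for 10. Across members, the departure of LV-HOXD9 replicate 3 from the mean library had a rho of 0.67 with GC content, and that of LV-Vector replicate 2 a rho of -0.61. Once the trends were removed, SLC25A20, SLC25A43 and SLC25A38, of 49.4% to 51.7% GC, had log2 fold changes of 0.34, -0.35 and 0.15. SLC25A17, of 39.2% GC, had 0.26 with an adjusted p of 0.0912 in that fit, against 0.11 without the removal.

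**Figure D4:**
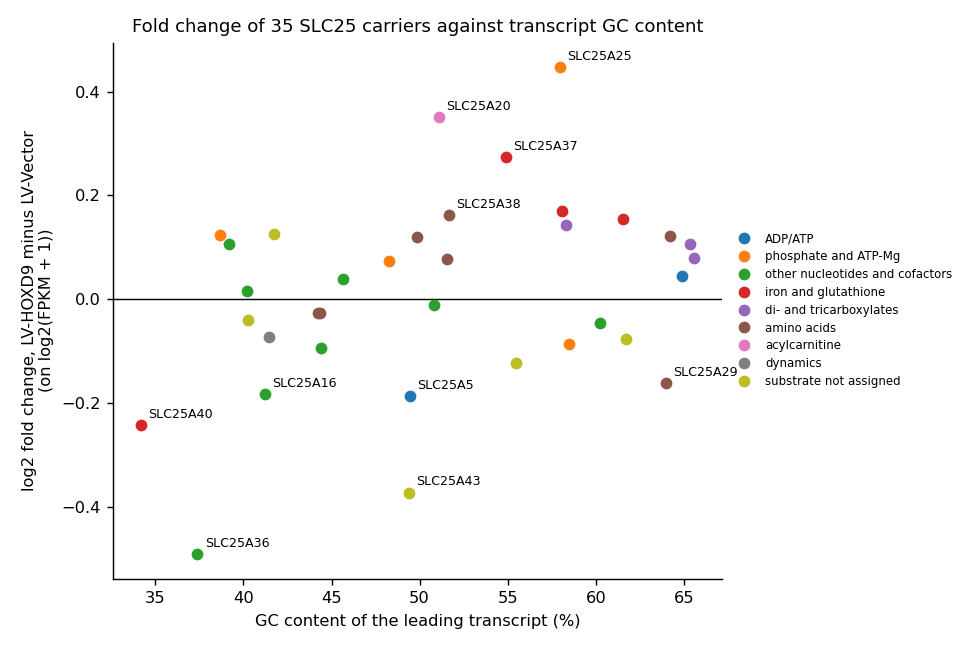
Log2 fold change of 35 SLC25 carriers (y axis, LV-HOXD9 minus LV-Vector on log2(FPKM + 1)) against the GC content of the leading transcript (x axis, %), with colour for the substrate group. SLC25A36 and SLC25A40, at 37.4% and 34.2% GC, lie at -0.49 and -0.24, while SLC25A20 and SLC25A43 lie at 0.35 and -0.37 with nearly the same GC content.

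Transcripts showed which isoforms carried these levels. Of the 36 members, 28 had several transcripts in the table and 8 had 1. Of the 107 member transcripts, 0 passed limma at an adjusted p under 0.05, against 40 of all transcripts (0.0992%), and 5 had an unadjusted p under 0.05 (4.67%, beside 6.98% of all transcripts). The smallest adjusted p was 0.562, for SLC25A37-210. The values of a gene's transcripts do not add up to its gene value, since the ratio of their sum to the gene value ran from 0.493 for SLC25A1 to 3.40 for SLC25A26 with a median of 1.39. LV-HOXD9 values lay below LV-Vector values for 8 member transcripts (7.48%, beside 8.7% of all transcripts) and above them for 8 (7.48%, beside 6.71%).

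For the members with the smallest p, the leading transcripts followed the genes. SLC25A20-201 was at 11.02, 9.42 and 8.62 FPKM in LV-HOXD9 libraries, against 8.03, 7.42 and 7.97 FPKM in LV-Vector libraries. SLC25A43-201 was at 1.12, 1.83 and 1.74 FPKM in LV-HOXD9 libraries, against 2.19, 2.09 and 2.17 FPKM in LV-Vector libraries. Neither had overlapping groups. The 3 transcripts of SLC25A36 were each lower in every LV-HOXD9 library than in any LV-Vector library, and the leading SLC25A36-203 was at 6.16, 6.12 and 4.64 FPKM in LV-HOXD9 libraries, against 6.87, 9.73 and 7.33 FPKM in LV-Vector libraries. SLC25A25-203 was at 4.92, 5.83 and 7.58 FPKM in LV-HOXD9 libraries, against 3.69, 4.88 and 1.14 FPKM in LV-Vector libraries, so that the groups of the gene's leading transcript did not overlap either.

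Among the transcripts that departed from their genes, SLC25A3-212 did so in direction and SLC25A39-203 in the overlap of the groups. SLC25A3-212 was at 6.66, 6.05 and 7.90 FPKM in LV-HOXD9 libraries, below 8.77, 8.41 and 9.37 FPKM in LV-Vector libraries. SLC25A3-203, of the same gene, was at 16.5, 14.9 and 14.3 FPKM in LV-HOXD9 libraries, above 14.1, 13.4 and 12.4 FPKM in LV-Vector libraries. The gene as a whole, with a log2 fold change of 0.07, thus held transcripts that lay on opposite sides, with adjusted p of 0.688 and 0.718. SLC25A39-203, a minor transcript, was at 4.80, 4.66 and 5.28 FPKM in LV-HOXD9 libraries, above 2.74, 3.11 and 4.08 FPKM in LV-Vector libraries, while the groups of the gene overlapped. The low SLC25A37-210 was at 0, 0.277 and 0.229 FPKM in LV-HOXD9 libraries, below 0.911, 1.16 and 0.668 FPKM in LV-Vector libraries. Its log2 fold change was -0.71, against 0.27 for its gene. SLC25A16-206, also low, had 0.20 without overlap, against -0.18 for its gene. SLC25A22-215 and SLC25A51-203 had no overlap either, unlike their genes.

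Other transcripts switched between single libraries and not between groups. SLC25A44-201 was at 20.1, 19.6 and 0.803 FPKM in LV-HOXD9 libraries, against 1.05, 16.8 and 1.02 FPKM in LV-Vector libraries. SLC25A44-204 ran the other way, at 2.02, 2.51 and 9.81 FPKM in LV-HOXD9 libraries and 9.87, 2.46 and 9.44 FPKM in LV-Vector libraries, while the gene stayed within 10.9 and 11.8 FPKM in the 6 libraries. The assignment between these isoforms thus moved almost completely from library to library within each group. SLC25A22-228 was at 8.04, 9.08 and 0.961 FPKM in LV-HOXD9 libraries, against 10.1, 7.46 and 8.08 FPKM in LV-Vector libraries, and SLC25A22-201 took its place in LV-HOXD9 replicate 3, with 10.1 FPKM. SLC25A29-202 was at 3.89, 1.502 and 4.18 FPKM in LV-HOXD9 libraries, against 0.045, 4.19 and 0.0563 FPKM in LV-Vector libraries. SLC25A37-206 was at 5.17 FPKM in LV-HOXD9 replicate 3 and at 1.34 to 1.99 FPKM in the other 5 libraries, which is the library in which the gene was high. For SLC25A16, SLC25A37 and SLC25A44 the leading transcript by group mean differed between LV-HOXD9 and LV-Vector libraries.

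**Figure D5:**
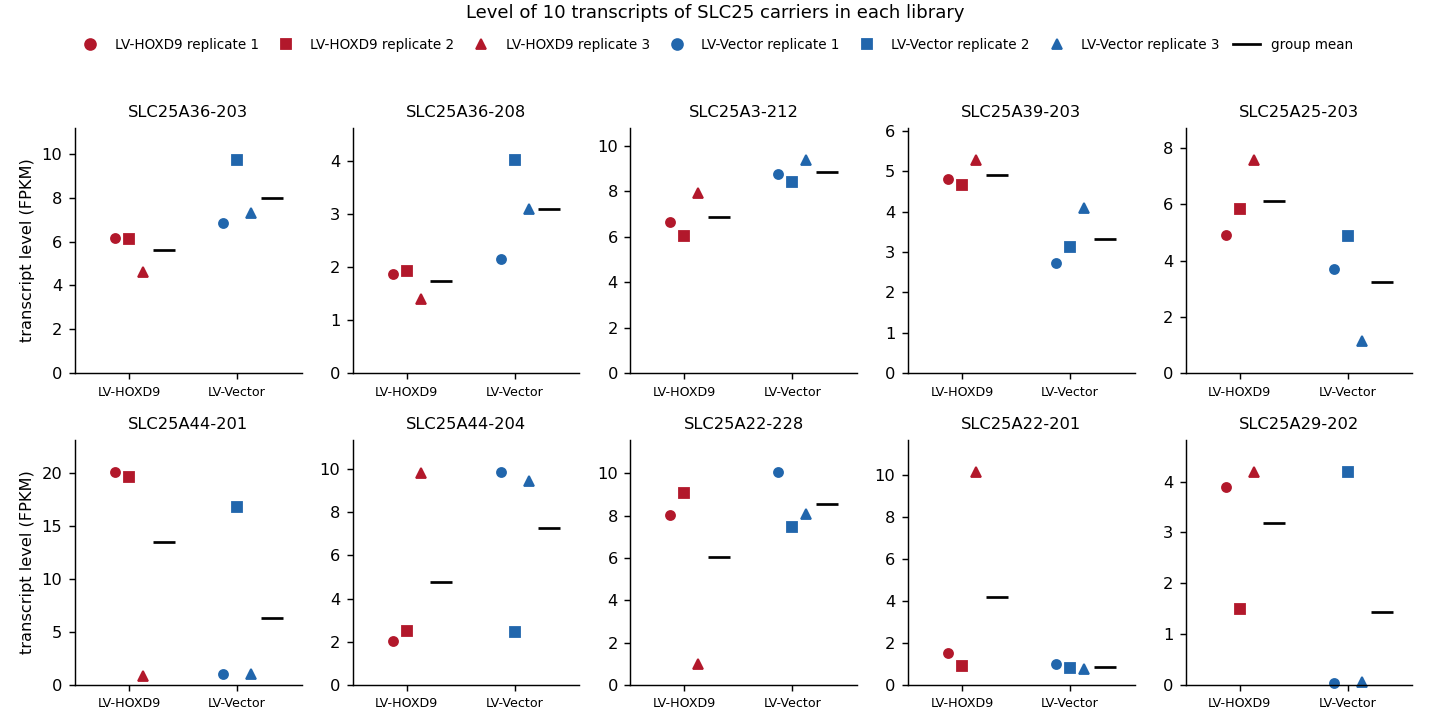
Level of 10 transcripts of SLC25 carriers (y axis, FPKM, from 0) in each LV-HOXD9 library (red, left) and LV-Vector library (blue, right), with the group mean as a black line. The upper panels hold transcripts whose groups do not overlap, and the lower panels transcripts that switch between libraries of 1 group, such as SLC25A44-201 at 20.1, 19.6 and 0.803 FPKM in LV-HOXD9 libraries.

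Genes around the carriers were counted in the same fit, and 0 of them had an adjusted p under 0.05. Of the relatives with other names, UCP2, an uncoupling protein relative of the inner membrane, had a log2 fold change of -0.10, and MTCH1 and MTCH2, carrier relatives of the outer membrane, had 0.07 and 0.02. UCP1 and UCP3 had no value here. The 13 genes for the import of carriers had a median of 0.11, with 0 members lower (beside 17.5% of all genes) and 4 higher (beside 10.9%) without overlap, 4 at an unadjusted p under 0.05 (beside 19%), and 2 that the criterion of the study picked as higher (beside 1.94%). TOMM22, a receptor of the outer membrane, was at 43.8, 43.6 and 45.6 FPKM in LV-HOXD9 libraries, against 36.3, 35.4 and 37.7 FPKM in LV-Vector libraries (log2 fold change 0.28, adjusted p = 0.113). TOMM40, the channel of the outer membrane, was at 58.4, 57.8 and 65.2 FPKM in LV-HOXD9 libraries, against 49.3, 46.1 and 46.9 FPKM in LV-Vector libraries (log2 fold change 0.34, adjusted p = 0.110). TIMM22, the channel through which carriers reach the inner membrane, had a log2 fold change of 0.24. After the trends with GC content and length were removed, the adjusted p of TOMM40, TIMM22 and TOMM22 was 0.0244, 0.0343 and 0.0479, in the fit that called 2.77% of all genes. TIMM8B, a small chaperone between the membranes, was at 12.01, 12.3 and 13.4 FPKM in LV-HOXD9 libraries, against 25.4, 25.7 and 10.9 FPKM in LV-Vector libraries. Its groups overlapped, with a log2 fold change of -0.59 (adjusted p = 0.322). It passed only without LV-Vector replicate 3, its lowest value (log2 fold change -0.97, adjusted p = 0.0373), in a fit that called 0.0646% of all genes.

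The medians of the other lists were small. The 19 other mitochondrial transporters, among them the pyruvate carrier, the calcium uniporter and the VDAC channels, had a median of 0.07, with 0 of 19 past the test in either direction and 3 at an unadjusted p under 0.05 (beside 19% of all genes). The groups did not overlap for 1 of them that was lower (beside 17.5% of all genes) and 2 that were higher (beside 10.9%). The 13 enzymes next to the carriers had a median of -0.06, again with 0 of 13 past the test and 5 at an unadjusted p under 0.05 (beside 19%). Without overlap were 2 enzymes that were lower (beside 17.5% of all genes) and 3 that were higher (beside 10.9%). Of the enzymes that share the acylcarnitine route with SLC25A20, CPT1A, which makes acylcarnitines at the outer membrane, was at 12.9, 13.4 and 13.1 FPKM in LV-HOXD9 libraries, against 14.8, 15.6 and 16.1 FPKM in LV-Vector libraries (log2 fold change -0.22, adjusted p = 0.171). CPT2, which takes them apart in the matrix, had a log2 fold change of -0.07. The other listed carnitine enzymes, CRAT, CPT1B and CPT1C, had -0.18, -0.25 and -0.09. CRAT was lower without overlap (adjusted p = 0.254 from limma), while the groups of CPT1B and CPT1C overlapped. The 7 measured regulators of mitochondrial content had a median of -0.08, with 0 of 7 past the test and 1 at an unadjusted p under 0.05 (beside 19%). Without overlap were 1 regulator that was lower (beside 17.5% of all genes) and 3 that were higher (beside 10.9%). PPARGC1A had no value here. One of the regulators, PPRC1, a coactivator of the PGC-1 family, had an adjusted p of 0.0362 after the removal of the trends, with a log2 fold change of 0.22, in the same fit with 2.77% of all genes called.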

How the data were processed

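RNA of 6 MKN-74 libraries was measured. The submitters' processing notes name cutadapt, FastQC, HISAT2, StringTie and GRCh37, with no versions in the sources used here. FPKM values per gene and per transcript, in both deposited tables, were calculated by the authors with Ballgown. The library kit keeps strand, but whether strand was used in counting is not stated. No column of other samples was found (0).

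LV-HOXD9 was compared with LV-Vector as log2(FPKM + 1) over the whole of each table with limma 3.58.1 (R 4.3.3, variances following a trend, Benjamini-Hochberg adjusted p under 0.05). An ordinary linear model gave the criterion of the study. The fit was tested on simulated data. Substrate groups came from textbook knowledge, and members and lists were chosen with earlier results of these data known. Every member was named but 1, which is not reported here and is left out of the plots of single members, though it counts in the sums, counts and medians. Values per library were given for members past the criterion of the study, the 10 with the smallest p and the 5 of highest level, and otherwise where a library stood apart. From the lists, those past a test, UCP2, MTCH1 and MTCH2 were named. CPT1A, CPT1B, CPT1C, CPT2, CRAT, TIMM22, TIMM8B, PPRC1 and the transcripts were chosen after their values were seen. GC content and length came from GENCODE 29 transcripts matched by identifier (97.4% of genes), and loess with a span of 0.5 removed their trends. Same-numbered libraries did not deviate together (r of -0.173, 0.168 and -0.00641), so no block was used. Other alternatives were a pseudocount of 0.1, a minimum mean of 1 FPKM, a TPM scale, median centring, quantile normalization, robust moderation, other thresholds, a replicate block and leaving out libraries. Python 3.11.15, pandas 2.3.3, SciPy 1.17.1 and matplotlib 3.10.9 were used.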

Additional observations from a re-analysis of the deposited data

How the results depend on the processing

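Of 143 values under alternatives of 9 counts and medians of members and lists, 114 kept their value within the spread or within 1.5 times, and 29 moved. Of 210 further values, for the 14 medians of substrate groups and lists, 172 kept within the spread and 38 moved. With the trends with GC content and length removed, 1 member (SLC25A20) passed against 0, the criterion of the study picked 2 members as lower against 1 (SLC25A43), 11 against 7 lay above LV-Vector without overlap, the median log2 fold change was 0.073 against 0.043, and 4 genes of the lists around the carriers passed against 0, beside the epithelial marker KRT18 (adjusted p = 0.0247). On a TPM scale, 4 members lay above LV-Vector without overlap and the median was -0.017. The median was 0.11 after median centring and 0.059 after quantile normalization, which made it positive in 8 substrate groups against 5. At a fold change of 1.5 the criterion picked 0 members as lower and 0 as higher. Without both libraries that stand apart, chosen after seeing the data, it picked 0 as lower, 6 members lay below and 11 above without overlap, and the median was 0.050. With each library left out in turn, the criterion picked 1 to 2 as lower and 1 to 2 as higher, 3 to 6 members lay below and 7 to 13 above without overlap, the median ran from 0.032 to 0.054, and 0 to 1 listed genes passed (TIMM8B without LV-Vector replicate 3). With the replicate block the criterion picked 0 members as lower, 4 members against 5 had an unadjusted p under 0.05, and 3 genes of the whole table passed limma against 25. That count of 25 was 334 with the trends removed, 14 after median centring, 9 without both libraries and 4 to 25 with each left out. The 5 members at an unadjusted p under 0.05 became 10 with the trends removed, 8 after median centring, 3 on a TPM scale, 3 without both libraries and 2 to 8 with each left out. For member counts by unadjusted p, by the criterion and by overlap, shares of all genes were counted without these changes only. The counts under alternatives thus cannot be read as particular to the carriers. The block moved no other count of members given here. The cause of these shifts was not tested. Of 539 member values under alternatives, SLC25A20 with the trends removed was the 1 that passed. FPKM keep no depth, so low members such as SLC25A45 have a counting error that is unknown here. With 3 libraries against 3, an exact permutation test cannot go below a two-sided p of 0.10.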
